A study of Mus musculus with 2 samples.

Results

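The genes described here are 10 chemokines that draw monocytes, macrophages, granulocytes and T cells, taken by symbol from the 55450 genes of the deposited count matrices. They are Ccl2, Ccl7, Ccl3, Ccl4, Ccl5, Ccl6, Ccl9, Cxcl9, Cxcl10 and Cxcl16. All 10 were found in both matrices, and each had UMIs in both libraries. They were measured by single-cell RNA sequencing of EMT6 tumors, a mouse mammary tumor line used as a model of triple-negative breast cancer, grown under the skin of BALB/c mice that kept their immune system after injection of 200000 cells. Mice of the Olaparib + LLY-283 group (labelled LLY283&Olaparib) received LLY-283, an inhibitor of the arginine methyltransferase PRMT5, at 50 mg/kg on a cycle of 3 days on and 4 days off, together with the PARP inhibitor Olaparib at 50 mg/kg. Mice of the Combo group (labelled LLY283&Olaparib&anti-PD1) received the same 2 drugs plus 200 µg of an antibody against PD-1 every 3 days. Both groups thus carried LLY-283 and Olaparib, and no untreated or vehicle library was analysed here. Each group was 1 library from the tumors of 3 mice pooled, so mouse, library and treatment cannot be told apart, and no p-value is given. The study's methods give an age of 5 to 6 weeks for female BALB/c (nude) mice as purchased, and do not say whether it also holds for the immunocompetent mice that carried these tumors.

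Chemokines are small secreted proteins that bind receptors on leukocytes and guide them along a gradient from blood to tissue. In tumors, Ccr2 ligands bring in monocytes that become macrophages, ligands of Ccr1 act on monocytes and granulocytes, and the interferon-induced ligands of Cxcr3 draw activated T cells and natural killer cells. Most CC chemokine genes of the mouse lie in clusters of neighboring genes, as do Cxcl9 and Cxcl10.

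In this annotation of GRCm38 all 10 members are protein-coding genes. Ccl2 (chr11:82035571-82037453, plus strand) lies 8.26 kb from Ccl7 (chr11:82045712-82047525, plus strand). Further along chromosome 11 follow Ccl5 (chr11:83525778-83530518, minus strand), Ccl9 (chr11:83572919-83578636, minus strand) and Ccl6 (chr11:83587882-83593087, minus strand), the last pair 9.25 kb apart. Ccl3 (chr11:83647844-83649355, minus strand) and Ccl4 (chr11:83662584-83664683, plus strand) are separated by 13.2 kb. Cxcl16 lies apart on the same chromosome (chr11:70453983-70459984, minus strand). Cxcl9 (chr5:92321347-92328079, minus strand) and Cxcl10 (chr5:92346638-92348889, minus strand) are 18.6 kb apart.

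In all, 16115 cells with 147214934 UMIs (unique molecular identifiers, each marking 1 captured transcript) came from the Olaparib + LLY-283 group, called the library without anti-PD-1 from here on, and 7542 cells with 162522700 UMIs from the Combo group. Where 2 values stand side by side, the library without anti-PD-1 comes first. The libraries stood apart before any chemokine was examined. Of their cells, 0.534% and 21.0% had at least 20% mitochondrial UMIs and were removed, and after doublet removal 13974 and 5672 cells were kept, with medians of 6920 and 13632.5 UMIs. The libraries shared 39 cell barcodes. Clusters were named from marker genes with the 10 chemokines left out of the genes used for clustering. This gave 10975 and 2734 tumor-like, 619 and 587 macrophage-like, 623 and 860 neutrophil-like, 157 and 107 DC-like (dendritic cell), 81 and 60 T-like, 240 and 63 CAF-like (fibroblast), 97 and 24 osteoclast-like, 32 and 49 myogenic-like and 39 and 12 endothelial-like cells in the libraries without and with anti-PD-1. A further 753 and 564 cells carried keratins at low UMI counts, and 358 and 612 cells stayed unnamed. Tumor-like clusters were named through keratins and had 4 to 5 of 10 epithelial markers over 2-fold. The T-like cluster also carried markers of natural killer cells, which summed to 1060.4 and 1004 CPM against 4077 and 3055 CPM for the 12 T cell markers. Median UMIs per cell differed by class and library, for example 2411 and 11595 in macrophage-like and 640 and 1984 in neutrophil-like cells. Levels are therefore given as CPM, the UMIs of a gene per 1000000 UMIs of all cells of a class in a library, and shares of cells with a UMI after each cell was thinned to 1000 UMIs. All intervals are 95% intervals of counting error only.

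Next, the class with the highest level of each chemokine was determined among the 8 classes with at least 20 cells in each library. Macrophage-like cells had the highest CPM of Ccl2, Ccl7, Ccl9 and Cxcl16 in both libraries, neutrophil-like cells that of Ccl3 and Ccl4, T-like cells that of Ccl5 and DC-like cells that of Cxcl9. The leading class was thus the same in both libraries for 8 of 10 chemokines. Ccl6 led in neutrophil-like cells in the library without anti-PD-1 and in macrophage-like cells with anti-PD-1, and Cxcl10 in DC-like and then T-like cells. Tumor-like cells led for none of the 10.

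**Figure D1:**
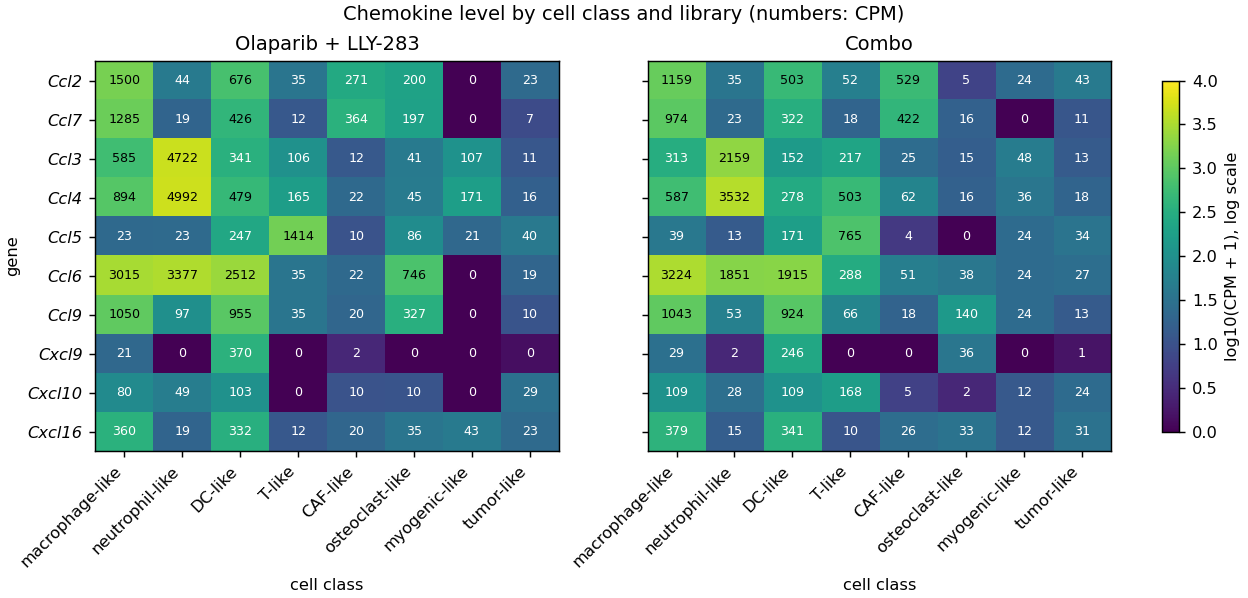
Level of each of the 10 chemokines (rows) in 8 cell classes (columns), Olaparib + LLY-283 library on the left and Combo library on the right. Color gives log10(CPM + 1) and the number in each field the CPM. Ccl3 and Ccl4 are brightest in neutrophil-like cells, Ccl2 and Ccl7 in macrophage-like cells and Ccl5 in T-like cells of both libraries, while the tumor-like column is dark for all 10.

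Ccl2 and Ccl7 encode the main ligands of Ccr2, the receptor by which inflammatory monocytes leave the bone marrow and enter tissue. In macrophage-like cells Ccl2 stood at 1500.4 CPM (1443 to 1560.0, from 2533 UMIs) in the library without anti-PD-1 and 1159 CPM (1134 to 1183, from 8528 UMIs) in the Combo library. After thinning, 46.7% (42.6 to 50.9) and 39.9% (35.9 to 44.0) of these cells had a Ccl2 UMI, against 1.85% and 3.00% of tumor-like cells. Lower shares than in macrophage-like cells were found in DC-like cells, 26.7% and 21.6%, and in CAF-like cells, 18.1% and 25.9%. The Ccl2 CPM of macrophage-like cells was 64.2 and 26.9 times that of tumor-like cells. Ccl7 had 1285 CPM (1231 to 1340.0) and 974 CPM (952 to 997) in macrophage-like cells. Its thinned shares there were 40.0% (35.9 to 44.1) and 32.3% (28.5 to 36.2). Both genes thus stood at a somewhat lower level in the Combo library within this class, with log2 ratios (Combo over Olaparib + LLY-283) of -0.37 (-0.44 to -0.31) for Ccl2 and -0.40 (-0.47 to -0.33) for Ccl7.

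The Ccr2 ligands were not confined to macrophage-like cells. CAF-like cells, named from fibroblast markers, had 271 CPM (241 to 303) and 529 CPM (492 to 568) of Ccl2. Of the 746 Ccl2 UMIs in CAF-like cells of the Combo library, 5 cells gave 52.8%. For Ccl7, CAF-like cells had 364 and 422 CPM. DC-like cells had 676 and 503 CPM of Ccl2 and 426 and 322 CPM of Ccl7. Of these UMIs, 5 cells held 40.7% and 46.4% for Ccl2 and 49.3% and 79.0% for Ccl7. The macrophage markers of DC-like cells summed to 5074 and 4329 CPM, compared with 11132 and 10478 CPM in macrophage-like cells. The part of macrophage transcripts in these DC-like values was not tested. Neutrophil-like cells were low for both genes, at 44.0 and 35.1 CPM of Ccl2 and 18.5 and 23.4 CPM of Ccl7.

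Ccl2 and Ccl7 were often found in the same cells. Among macrophage-like cells with a Ccl7 UMI, 84.0% and 92.3% also had a Ccl2 UMI in the libraries without and with anti-PD-1. Of all macrophage-like cells, 60.7% and 75.3% had one. These shares were not thinned, and the part of the depth of each cell in them was not tested. The ratio of Ccl2 to Ccl7 UMIs was 1.17 and 1.19 in macrophage-like cells but 3.19 and 4.02 in tumor-like cells. The Ccl2 UMIs of tumor-like cells thus did not keep the macrophage-like ratio to Ccl7. In tumor-like cells of the Combo library 5 cells held 21.8% of the Ccl2 UMIs, and 1 cell held 518. Across 32 clusters of at least 20 cells, Ccl7 was the gene most like Ccl2 of 13149 genes (Pearson r of log2(CPM + 1) 0.95), followed by Pid1 and Dhrs3 at 0.93. These clusters share the same 2 libraries and differ in depth, so these correlations describe the clusters only.

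Within the macrophage-like class, 6 clusters were present, and the libraries filled them unequally. Cluster B3, led by Ms4a7, Ccr2 and Lyz2, held 43 and 344 cells, cluster B5, led by Mmp12, Fabp5 and Arg1, 235 and 117 cells, and cluster B8, led by Ccl12, Apoe and the complement genes C1qa and C1qb, 207 and 21 cells. Ccl2 had 2505 and 1238 CPM in B3, 1283 and 977 CPM in B5 and 1752 and 603 CPM in B8. In cluster B11, led by Lyve1, Cd163 and Selenop, the order was the other way, with 672 CPM in the library without anti-PD-1 (82 cells) and 1115 CPM in the Combo library (43 cells). Ccl7 in B11 had 1039 and 1603 CPM. The lower Ccl2 and Ccl7 level of the Combo library therefore did not hold in every macrophage-like cluster, and the clusters that make up the class differed between libraries.

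Ccl3 and Ccl4 encode MIP-1α and MIP-1β, inflammatory chemokines that draw monocytes and T cells, and Ccl3 binds Ccr1. Neutrophil-like cells had 4722 CPM of Ccl3 (4519 to 4931, from 2040 UMIs) in the library without anti-PD-1 and 2159 CPM (2090.1 to 2230.1, from 3686 UMIs) in the Combo library. For Ccl4 they had 4992 CPM (4784 to 5208) and 3532 CPM (3444 to 3623). Macrophage-like cells came next, with 585 and 313 CPM of Ccl3 and 894 and 587 CPM of Ccl4. Neutrophil-like cells thus stood 8.07 and 6.91 times above macrophage-like cells for Ccl3, and 5.58 and 6.01 times for Ccl4. Tumor-like cells had 11.0 and 12.8 CPM of Ccl3 and 16.1 and 18.2 CPM of Ccl4. Neutrophil-like cells carried few UMIs, and at 1000 UMIs per cell only 33 of 623 cells of the library without anti-PD-1 could be used. Of those, 75.0% (57.7 to 88.9) had a Ccl3 UMI, against 41.9% (38.3 to 45.5) of 755 Combo cells. At 500 UMIs per cell, where all 623 and 860 cells entered, the shares were 59.9% and 34.4%. The order of the libraries was the same at both depths.

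The 2 neighboring genes were often counted in the same cells. Of neutrophil-like cells with a Ccl4 UMI, 82.1% and 72.7% also had a Ccl3 UMI. Of all neutrophil-like cells, 64.2% and 49.0% had one. These shares were not thinned, and the part of the depth of each cell in them was not tested. Ccl4 was the gene most like Ccl3 across the 32 clusters (r 0.99), followed by Lilrb4a, which encodes an inhibitory receptor of myeloid cells, and Ccrl2, a receptor that binds chemerin, both at 0.98.

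The cells with neutrophil markers fell into 5 clusters, of which 3 were named neutrophil-like and 2 stayed unnamed because of their low UMI counts and the absence of neutrophil markers among their 10 leading genes. Cluster B0, led by Retnlg and Stfa2, held 616 of the 623 neutrophil-like cells of the library without anti-PD-1 and 123 of the Combo library. The Combo library also filled cluster B2 (6 and 472 cells) and cluster B6 (1 and 265 cells), the latter led by Retnlg, Pglyrp1 and Hp. Unnamed cluster B1 (25 and 458 cells), led by Hcar2, Rhov and Ciart, and unnamed cluster B13 (3 and 96 cells), led by the interferon-induced Slfn4 and Rsad2 and by Acod1, both had 10 of 10 neutrophil markers over 2-fold. Ccl3 in B0 was 4715 CPM (4510.4 to 4926) and 2323 CPM (2056 to 2614). In the Combo library it was 2862 CPM in B2 and 906 CPM in B6. B1 had the most, 7195 CPM (6253 to 8239.7) and 6813 CPM (6635 to 6994), and its intervals overlapped between libraries. Ccl3 thus spanned 906 to 6813 CPM among clusters of the Combo library that all carried neutrophil markers. Ccl4 spanned a similar range there, from 1481 CPM in B6 to 7484 CPM (7116 to 7865) in B13.

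**Figure D2:**
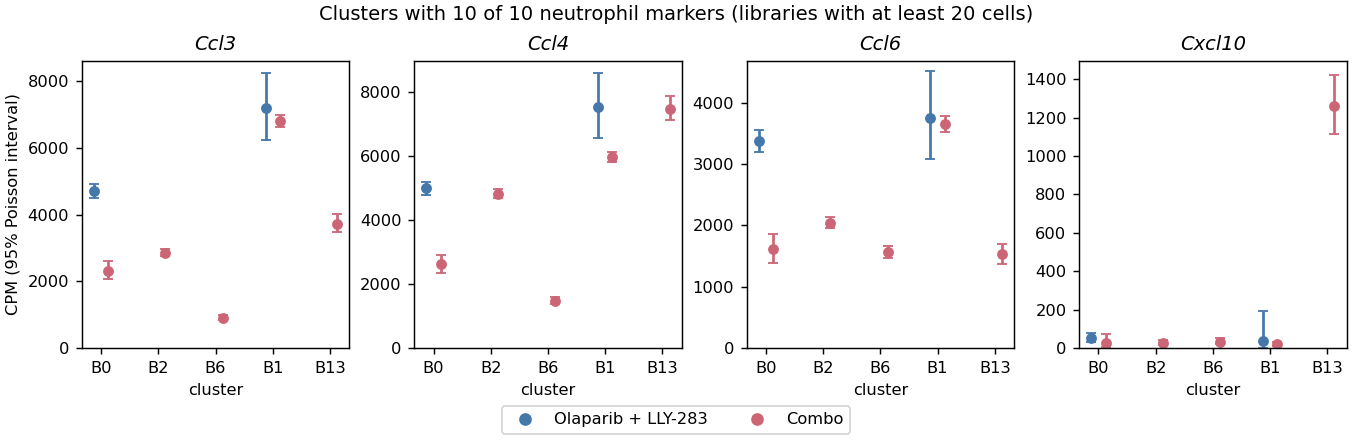
CPM of Ccl3, Ccl4, Ccl6 and Cxcl10 (panels) in the 5 clusters with 10 of 10 neutrophil markers over 2-fold, for libraries with at least 20 cells in the cluster. Points are CPM, bars the 95% Poisson interval, blue the Olaparib + LLY-283 library and red the Combo library. In cluster B0 Ccl3, Ccl4 and Ccl6 stand lower in the Combo library, while in B1 the Ccl3 and Ccl6 points of both libraries overlap, and Cxcl10 reaches 1262 CPM in B13.

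Between libraries, Ccl3 had the lowest log2 ratio in neutrophil-like cells among members with at least 50 UMIs, -1.13 (-1.21 to -1.05). Ccl4 had -0.50 (-0.57 to -0.43). When the 2 unnamed clusters with neutrophil markers were added to the class, a choice made after the data were seen, the ratio was -0.40 (-0.47 to -0.34) for Ccl3 and -0.17 (-0.24 to -0.11) for Ccl4. The size of the Ccl3 difference thus rested on which clusters were counted as neutrophil-like, although B0 alone gave -1.02 (-1.21 to -0.84). In macrophage-like cells the ratio was -0.90 (-1.01 to -0.80) for Ccl3 and -0.61 (-0.69 to -0.52) for Ccl4. DC-like cells had -1.16 (-1.53 to -0.80) for Ccl3. T-like cells went the other way for Ccl4, with 165 and 503 CPM, a log2 ratio of 1.61 (0.83 to 2.51), but 5 of 60 cells held 93.2% of the Combo UMIs, and without the 5 highest cells of each library the ratio was -0.42. The neutrophil markers of T-like cells summed to 424 and 2930 CPM, and their part in this value was not tested.

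Ccl6 and Ccl9 are CC chemokines of rodents that bind Ccr1 and are made by myeloid cells. Ccl6 was high in 3 myeloid classes. Macrophage-like cells had 3015 CPM (2933 to 3099) and 3224 CPM (3183 to 3265), neutrophil-like cells 3377 CPM (3206 to 3555) and 1851 CPM (1787 to 1917), and DC-like cells 2512 and 1915 CPM. The change of leading class thus came with a lower level in neutrophil-like cells, whose log2 ratio was -0.87 (-0.96 to -0.78), while that of macrophage-like cells was 0.10 (0.05 to 0.14). With the 2 unnamed clusters with neutrophil markers added, the neutrophil-like ratio was -0.52 (-0.60 to -0.44). In the library without anti-PD-1 the lead of neutrophil-like over macrophage-like cells was 1.12 times. When each cell was instead classed from its own marker UMIs, macrophage-like cells led in both libraries. After thinning, 55.7% (51.6 to 59.8) and 50.9% (46.9 to 55.1) of macrophage-like cells had a Ccl6 UMI, compared with 2.01% and 2.72% of tumor-like cells.

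Ccl9 was a gene of macrophage-like and DC-like cells and was low in neutrophil-like cells. It had 1049.7 CPM (1001 to 1099.7) and 1043 CPM (1019.9 to 1067) in macrophage-like cells and 955 CPM (851 to 1069) and 924 CPM (866 to 984) in DC-like cells. The intervals of these neighbors overlapped in the library without anti-PD-1, so their order there was not resolved. In neutrophil-like cells Ccl9 had 97.2 and 53.3 CPM. The ratio of Ccl6 to Ccl9 UMIs was accordingly 34.7 in neutrophil-like cells of both libraries but 2.87 and 3.09 in macrophage-like cells. In macrophage-like cells Ccl9 differed little between libraries, with a log2 ratio of -0.01 (-0.08 to 0.07). The genes most like Ccl9 across the 32 clusters were Tfec, Pf4 and Ctss (r 0.96), and those most like Ccl6 were Nfkbid, Csf2ra (r 0.97) and Cd84 (r 0.96).

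Both genes peaked in the same macrophage-like cluster. In B11, whose leading genes Lyve1 and Cd163 are known from resident tissue macrophages, Ccl6 had 10072 CPM (9662 to 10494) and 12846 CPM (12577 to 13119). There, 98.8% of 82 cells and 97.7% of 43 cells had a Ccl6 UMI without thinning. Ccl9 in B11 had 2260.3 CPM (2069 to 2465) and 2917 CPM (2789.9 to 3049). Both were the highest values of these genes among the macrophage-like clusters of their library. Osteoclast-like cells, named from Ctsk and Acp5, had 746 CPM of Ccl6 in the library without anti-PD-1 (97 cells) and 38.2 CPM in the Combo library (24 cells). In the former, 5 cells held 57.4% of the Ccl6 UMIs.

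**Figure D3:**
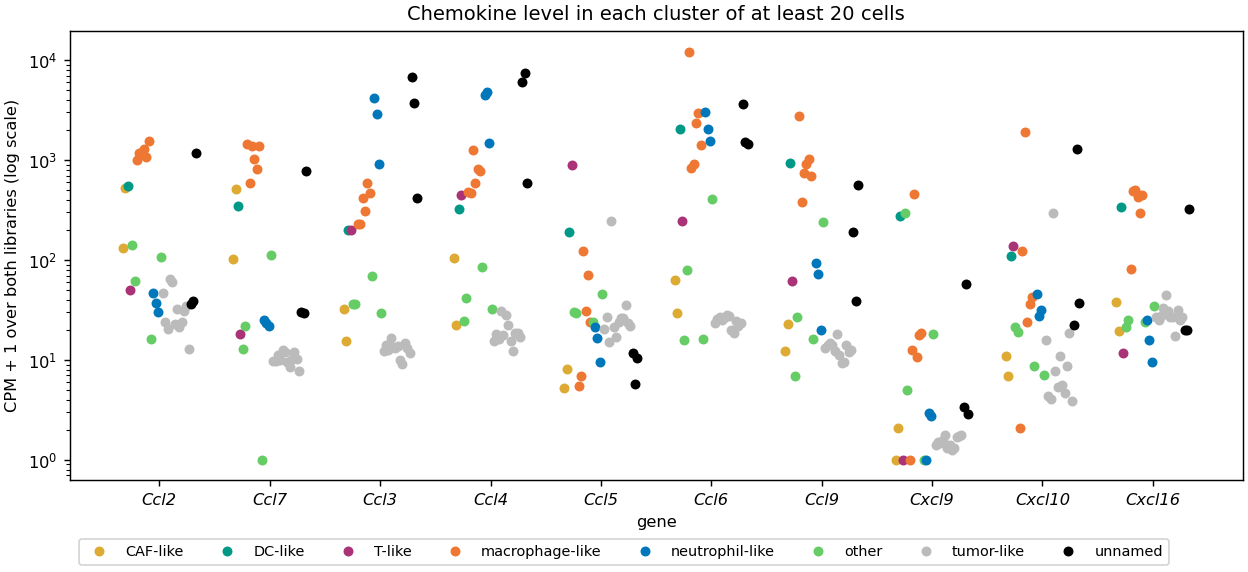
Level of each chemokine in every cluster of at least 20 cells over both libraries. Each point is 1 cluster, colored by its class, and the vertical axis is CPM + 1 on a log scale. The gray tumor-like points lie low for most genes, with 1 tumor-like cluster raised for Ccl5 and Cxcl10, and the highest Ccl6 point is macrophage-like cluster B11.

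Ccl5, or RANTES, is a ligand of Ccr1 and Ccr3 that effector T cells and natural killer cells store and release. T-like cells had 1414 CPM (1172 to 1691, from 120 UMIs) in the library without anti-PD-1 and 765 CPM (679.9 to 858, from 292 UMIs) in the Combo library. DC-like cells followed with 247 and 171 CPM, so the T-like level was 5.71 and 4.48 times higher. In DC-like cells 5 cells held 77.2% and 87.0% of the Ccl5 UMIs. Without thinning, 27 of 81 and 17 of 60 T-like cells had a Ccl5 UMI, and in the Combo library 5 cells gave 74.3% of the UMIs. After thinning the shares were 28.9% (13.7 to 46.7) of 32 cells and 21.9% (12.5 to 35.3) of 58 cells, against 1.69% and 1.70% of tumor-like cells. Within the T-like cluster Ccl5 was common among cells with a UMI of Cd8a or Cd8b1, the coreceptor of cytotoxic T cells, where 17 of 25 and 8 of 12 cells had it, at 3439 and 2334 CPM. The log2 ratio of the whole T-like class was -0.89 (-1.20 to -0.57), from few cells in both libraries. Across the 32 clusters the gene most like Ccl5 was Tnfsf10 (r 0.80), the death ligand TRAIL.

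Most Ccl5 UMIs were nevertheless counted in tumor-like cells, since these held 94.9% and 90.0% of all UMIs of kept cells. Tumor-like cells had only 40.2 CPM (39.0 to 41.4) and 33.8 CPM (32.8 to 34.8), but held 92.7% and 84.7% of all Ccl5 UMIs. These UMIs were unevenly spread, with 5 cells holding 16.8% and 36.3% of them. A single tumor-like cluster, A12, led by the interferon-induced genes Apol9a, Ifit1 and Gbp3, made up 5.43% and 5.93% of tumor-like cells and held 31.3% and 49.9% of their Ccl5 UMIs. Ccl5 had 205 CPM (194 to 215) and 275 CPM (264 to 286) in A12, which was 6.95 and 15.2 times its level in the other tumor-like clusters. A few cells weighed heavily on these values, since 5 cells held 39.7% and 63.7% of the A12 UMIs of Ccl5. Without the 5 highest cells of A12 and of the other clusters, a choice made after the data were seen, A12 had 125 and 104 CPM, 5.30 and 8.82 times the others, and 25.5% and 35.6% of the UMIs. After thinning, 6.26% (4.42 to 8.47) and 8.63% (4.84 to 14.2) of A12 cells had a Ccl5 UMI, against 1.43% and 1.26% of other tumor-like cells.

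Cxcl10 followed the same cluster more closely. In A12 it had 349 CPM (335 to 363) and 254 CPM (243 to 265), compared with 8.29 and 8.89 CPM in the other tumor-like clusters, a difference of 42.1 and 28.6 times. A12 held 73.3% and 65.1% of the Cxcl10 UMIs of tumor-like cells. After thinning, 17.6% and 13.6% of A12 cells had a Cxcl10 UMI, against 0.592% and 0.721% of other tumor-like cells. Without the 5 highest cells the level was 43.2 and 21.2 times that of the others. Ccl5 and Cxcl10 thus marked 1 tumor-like cluster of both libraries. Of the other 8 members, Ccl2 had the largest ratio there, 1.79 and 2.06 times, which was 1.17 and 0.868 times without the 5 highest cells, and Ccl7, Ccl6, Ccl9 and Cxcl16 were between 0.921 and 1.26 times the level of other tumor-like clusters.

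Cxcl9 and Cxcl10 are ligands of Cxcr3 that interferon-γ induces, and Cxcl10 also answers to type I interferon. DC-like cells, which had the highest Cxcl9 level among the 8 classes compared (a lead kept in both libraries under 6 of 12 alternative settings), had 369.6 CPM (306 to 443, from 118 UMIs) and 246 CPM (217 to 278, from 255 UMIs). In DC-like cells 5 cells held 63.6% and 66.7% of the Cxcl9 UMIs. Macrophage-like cells had 21.3 and 28.8 CPM. Over both libraries, however, the small macrophage-like cluster B18 (16 and 28 cells) had 452 CPM, above the 275 CPM of the DC-like cluster. Cxcl9 was rare even in DC-like cells, in which 9.45% (5.15 to 15.7) and 8.96% (3.99 to 15.6) had a UMI after thinning, while the tumor-like shares were 0.0500% and 0.0563%. A Cxcl9 UMI was found in 0 of 81 and 0 of 60 T-like cells, where 3 counts would be a share of 3.70% and 5.00% of cells with a UMI. These cells had medians of 891 and 4136 UMIs, so that a low level in T-like cells was not detectable at this depth. The endothelial-like cells, too few for the comparison of classes, had 38.3 CPM and then 699 CPM (564 to 857), the latter from 92 UMIs in 4 of 12 cells. The gene most like Cxcl9 across clusters was Cxcl11, the other Cxcr3 ligand on the list of chemokines (r 0.89).

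For Cxcl10, DC-like cells had 103 CPM (71.1 to 145) and 109 CPM (89.8 to 131), and macrophage-like cells had 80.0 CPM (67.0 to 94.7) and 109 CPM (102 to 117). These neighbors overlapped in both libraries. T-like cells led in the Combo library with 168 CPM (129 to 214), but the 64 UMIs came from 3 of 60 cells, 1 of which held 39. In the library without anti-PD-1 0 of 81 T-like cells had a Cxcl10 UMI, at the same shallow depth. Of the 64 Combo UMIs, 63 came from 2 cells with a UMI of the natural killer cell markers Ncr1 or Klrb1c. The lead of T-like cells thus rested on 2 cells, and without the 5 highest cells macrophage-like cells led. A pair of small immune clusters stood well above these class values. Macrophage-like cluster B18 (16 and 28 cells), led by Cxcl11, Ifi209 and Mx1, had 1018 CPM (775 to 1313) and 2078 CPM (1912 to 2253), and unnamed cluster B13 had 1262 CPM (1114 to 1424) in the Combo library. Together with A12, the clusters highest in Cxcl10 thus lay in 3 kinds of cells, and interferon-induced genes were among the leading genes of each. Usp18 and Ifit1, also induced by interferon, were the genes most like Cxcl10 (r 0.83), and since such genes helped to define these clusters, this likeness describes them and is no test.

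**Figure D4:**
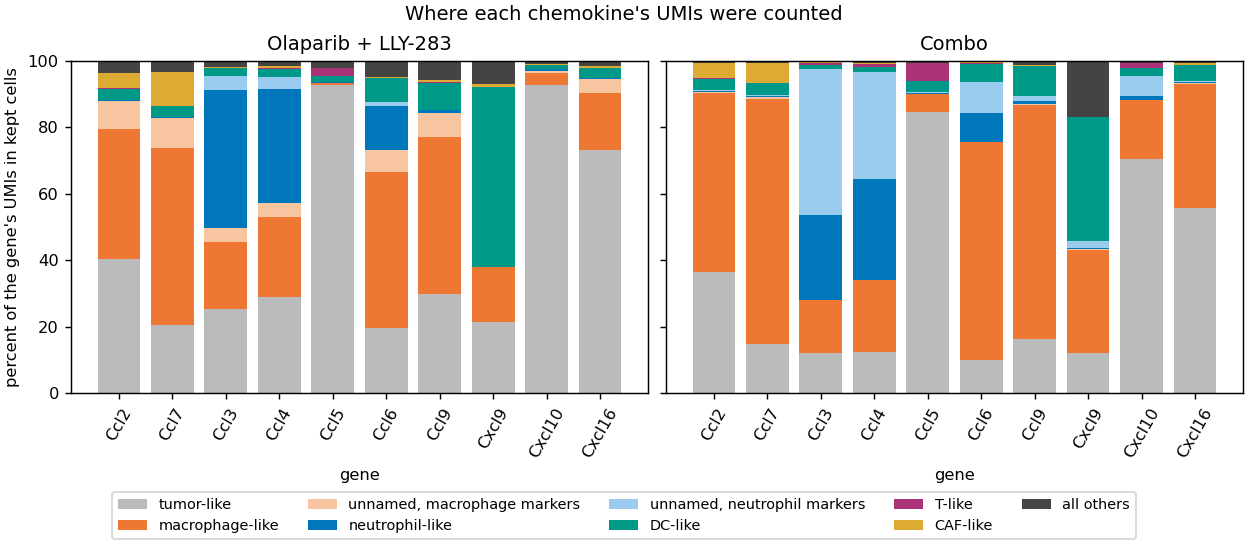
Share of all UMIs of each chemokine counted in each kind of cell, as stacked bars from 0 to 100 percent of the UMIs in kept cells, Olaparib + LLY-283 library on the left and Combo library on the right. Tumor-like cells (gray) hold 92.7% and 84.7% of Ccl5 and 92.7% and 70.6% of Cxcl10, and the clusters with neutrophil markers (dark and light blue) hold 45.9% and 69.6% of Ccl3.

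The stretch of 250 bases before the transcription start was available from RefSeq (GRCm38.p6) for 5 members, Ccl3, Ccl6, Ccl9, Cxcl9 and Cxcl10. It was searched on both strands for the core of the interferon-stimulated response element (ISRE, TTCNNTTTC), the gamma-activated site (TTCNNNGAA) and an NF-κB-type site (GGNNNTTCC). The ISRE core was found in 3 of 5 (Ccl3, Cxcl9 and Cxcl10), and in 7.13% of all 32851 stretches of this length. An NF-κB-type site was found in 3 of 5 (Ccl9, Cxcl9 and Cxcl10) and in 15.7% of all, and the gamma-activated site in 0 of 5 and 7.02% of all. The sequences of the members with an ISRE core are shown, because they set the Cxcr3 ligands Cxcl9 and Cxcl10 beside Ccl3, which was highest in other cells. Each is written 5′ to 3′ on the gene's own strand, the minus strand, and capitals mark ISRE and NF-κB-type matches.
Cxcl9: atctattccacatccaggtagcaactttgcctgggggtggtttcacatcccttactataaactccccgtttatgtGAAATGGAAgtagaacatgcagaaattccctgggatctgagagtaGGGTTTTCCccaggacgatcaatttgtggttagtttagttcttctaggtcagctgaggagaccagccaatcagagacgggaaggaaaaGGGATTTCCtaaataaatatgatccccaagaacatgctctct
Cxcl10: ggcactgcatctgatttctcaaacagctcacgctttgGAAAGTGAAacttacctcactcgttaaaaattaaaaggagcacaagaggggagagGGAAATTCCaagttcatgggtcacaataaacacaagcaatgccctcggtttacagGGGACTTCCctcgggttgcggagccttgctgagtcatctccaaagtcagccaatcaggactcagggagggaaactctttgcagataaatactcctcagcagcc
Ccl3: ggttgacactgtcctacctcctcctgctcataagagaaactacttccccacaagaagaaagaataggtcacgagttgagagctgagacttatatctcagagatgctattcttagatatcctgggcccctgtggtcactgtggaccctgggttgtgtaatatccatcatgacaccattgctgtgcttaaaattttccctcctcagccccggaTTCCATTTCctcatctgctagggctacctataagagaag
The Cxcl9 stretch is chr5:92328080-92328329, with an ISRE core whose first base lies 175 bases before the start and NF-κB-type matches at 130 and 42 bases. The Cxcl10 stretch is chr5:92348890-92349139, with an ISRE core at 213 bases and NF-κB-type matches at 158 and 103 bases. In Ccl3 (chr11:83649379-83649628) the ISRE core lies 39 bases before the RefSeq start. That start lies upstream of the Ccl3 start in the annotation given above (83649355), whereas the Cxcl9 and Cxcl10 stretches abut their genes. Cxcl9 and Cxcl10 thus held the same kinds of matches in the same order, and none of the matches in a stretch overlapped another. A match of letters is a description of the sequence and no evidence of binding.

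Cxcl16 encodes a membrane-bound chemokine and ligand of Cxcr6, a receptor of activated T cells. Macrophage-like and DC-like cells had it at similar levels, 360.1 CPM (332 to 389.9) and 379 CPM (365 to 393) in the former and 332 CPM (272 to 402) and 341 CPM (307 to 379) in the latter. The intervals of both classes overlapped in both libraries, so their order was not resolved. After thinning, 27.3% (23.7 to 31.2) and 30.4% (26.7 to 34.3) of macrophage-like cells had a UMI. Cxcl16 was the member with the smallest gap to tumor-like cells among those led by macrophage-like cells, 15.5 and 12.3 times. Tumor-like cells had 23.3 and 30.9 CPM, and after thinning 2.34% and 2.87% of them had a Cxcl16 UMI. Ccl6, highest in myeloid cells, was found in 2.01% and 2.72% of the same cells, so the tumor-like shares of both genes lay close together. In macrophage-like cells, however, Ccl6 had 3015 and 3224 CPM, far above Cxcl16. Tumor-like cells held 73.3% and 55.8% of all Cxcl16 UMIs, but 19.7% and 9.94% of all Ccl6 UMIs. The part of free RNA in the low tumor-like values of either gene was not tested. Cxcl16 was lowest among the macrophage-like clusters in B11, at 119 and 67.9 CPM, where Ccl6 and Ccl9 peaked. Adap2 (r 0.93) and Slamf9 (r 0.92), a receptor of the SLAM family, were most like it across clusters.

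The libraries were then compared within macrophage-like, tumor-like and neutrophil-like cells. The limit was 2-fold in CPM, for genes of at least 50 UMIs over both libraries. The other classes had fewer cells and were not counted in this way, although some of their members were past this limit. Osteoclast-like cells had log2 ratios of -5.20 for Ccl2 and -4.29 for Ccl6. For Ccl6, T-like cells had 3.03, with 91.8% of the Combo UMIs in 5 cells, and CAF-like cells 1.22. No share of all genes was calculated for these classes. In macrophage-like cells 0 of 10 members were over 2-fold higher and 0 over 2-fold lower in the Combo library, where 1.54% and 0.914% of all 9299 genes were. The median log2 ratio of the members was 0.03 and that of all genes 0.06. Single members ranged from -0.90 for Ccl3 to 0.78 (0.29 to 1.31) for Ccl5, which had 38 and 285 UMIs. With doublets kept, 7 of 10 were over 2-fold higher (all but Ccl3, Ccl5 and Cxcl9), the macrophage-like class then held other cells, and its tumor markers summed to 823 and 333 CPM. No share of all genes was calculated with doublets kept, so this count stands without a background. In tumor-like cells 0 of 10 were higher and 0 lower, where 1.63% and 0.762% of 15093 genes were, and the median of the members was 0.40 against 0.06. Neutrophil markers in tumor-like cells summed to 183 and 252 CPM, macrophage markers to 56.1 and 70.8 CPM and T cell markers to 6.58 and 6.67 CPM. The part of free RNA from other cells in the tumor-like ratios of the members was not tested. Tumor-like Ccl2 was the nearest to the limit, at 23.4 CPM (22.5 to 24.3) and 43.0 CPM (41.9 to 44.2), a log2 ratio of 0.88 (0.81 to 0.95). The tumor-like clusters were filled unequally, for example A3 with 1469 and 94 cells, A4 with 1326 and 67 and A16 with 57 and 337. Ccl2 ran the other way in some of them, with 164 and 55.4 CPM in A16 (log2 ratio -1.57) and 24.6 and 13.5 CPM in A4 (-0.87). The members with the lowest ratios in tumor-like cells were Cxcl10 and Ccl5, at -0.29 (-0.36 to -0.22) and -0.25 (-0.31 to -0.19).

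In neutrophil-like cells 6 of 10 members had at least 50 UMIs, and Ccl7, Ccl5, Cxcl9 and Cxcl16 did not. Of the 6, 0 were over 2-fold higher and 1, Ccl3, was over 2-fold lower in the Combo library. Over all 4298 genes tested in this class, 11.2% were higher and 3.37% lower. The median of the 6 was -0.83 and that of all genes 0.04. With the 2 unnamed clusters added, 8 members had at least 50 UMIs, 0 were past 2-fold, Cxcl10 turned from -0.79 (-1.56 to 0.02) to 0.99 (0.43 to 1.60) and Ccl9 went from -0.87 (-1.41 to -0.30) to 0.07 (-0.40 to 0.58). No share of all genes was calculated with these clusters added. The cells of this class came mostly from cluster B0 in the library without anti-PD-1 and from B2 and B6 in the Combo library. Tumor markers in neutrophil-like cells summed to 488 and 258 CPM, and in macrophage-like cells to 219 and 127 CPM, compared with 1083 and 1034 CPM in tumor-like cells. These sums moved with the libraries, and their part in the ratios was not tested.

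Over all kept cells the picture was different. Of the 10 members, 5 were over 2-fold higher in the Combo library, namely Ccl6, Ccl4, Cxcl9, Ccl3 and Ccl9, and 0 were lower. Of all 16112 genes, 6.75% were higher and 0.683% lower. Ccl6 had 91.6 CPM (89.9 to 93.3) and 242 CPM (239 to 244), a log2 ratio of 1.40 (1.37 to 1.43). Ccl4 had 52.8 and 133 CPM (1.34), Ccl3 41.2 and 96.3 CPM (1.22), Ccl9 31.5 and 72.6 CPM (1.20) and Cxcl9 1.83 and 4.55 CPM (1.31). Ccl2 and Ccl7 were just inside the limit, at 0.95 (0.91 to 0.99) and 0.93 (0.87 to 0.98), while Cxcl10 was near equal, at 0.03 (-0.03 to 0.09). Cxcl9 fell short of 2-fold with doublets kept and without the 5 highest cells, and Ccl9 with the mean of per-cell CPM. The median of the members was 1.08, that of all genes 0.08.

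The share of myeloid cells differed between the libraries in the same direction. Cells with neutrophil markers, unnamed clusters included, were 4.66% and 24.9% of kept cells, and cells with macrophage markers 6.76% and 11.2%. Macrophage-like cells held 1.42% and 4.92% of all UMIs, and neutrophil-like cells 0.364% and 1.14%. When the Combo class levels were weighted by the class mix of the library without anti-PD-1, a calculation added after the data were seen, 0 of 10 members were over 2-fold higher and the median log2 ratio was -0.09. No share or median of all genes was calculated at this mix, so these values stand without a background. Ccl3 had -0.54, Ccl4 -0.26, Ccl6 -0.059 and Ccl9 0.051 at this mix, and Cxcl9 kept 0.77. The Cxcl9 value includes the endothelial-like cells, at 699 CPM in the Combo library from 92 UMIs in 4 of 12 cells. The part of these 4 cells in it was not tested. Ccl7 also came to lie below 0, at -0.11, as did Cxcl10, at -0.25, and Ccl2 had 0.29. Of the 5 genes past 2-fold over all cells, 4 thus had ratios near 0 or below it at a fixed mix. Within macrophage-like cells the same 5 genes ranged from -0.90 for Ccl3 to 0.43 (-0.08 to 0.99) for Cxcl9. More cells of a class and more recovered RNA per cell of that class cannot be told apart in these sums, and the libraries also differed in the cells lost to the mitochondrial limit.

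**Figure D5:**
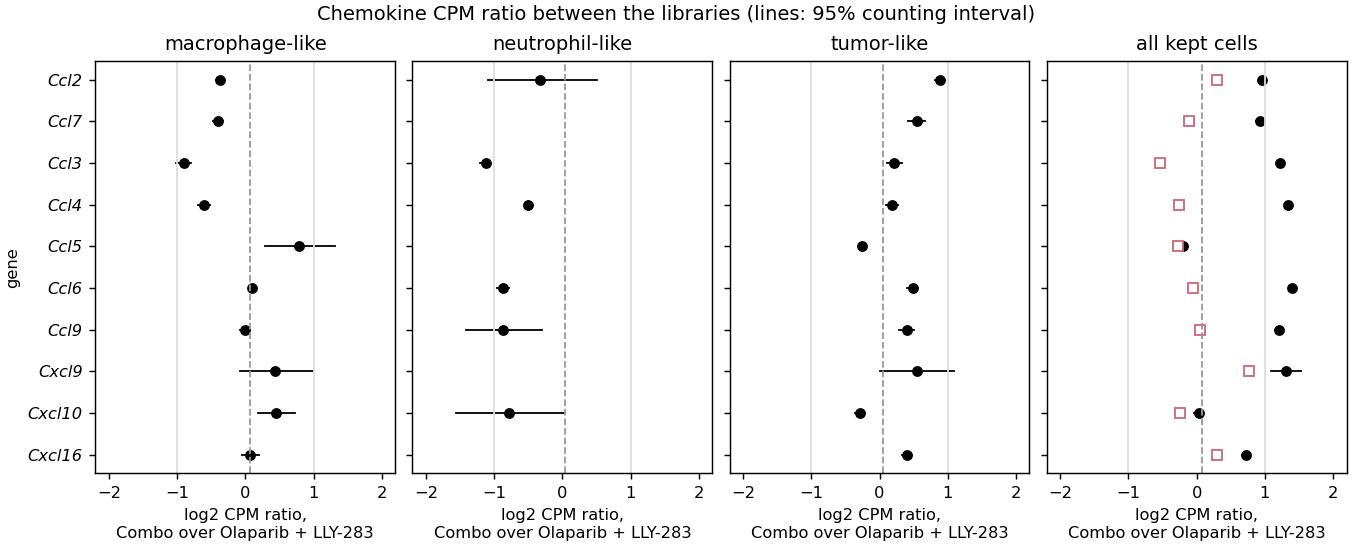
Log2 ratio of CPM, Combo over Olaparib + LLY-283, for each chemokine in macrophage-like, neutrophil-like and tumor-like cells and over all kept cells. Points are the ratios, lines the 95% counting intervals, the dashed line the median of all genes and the gray lines 2-fold in each direction. Open squares in the last panel give the ratio at the class mix of the Olaparib + LLY-283 library. Over all kept cells 5 points lie above 2-fold and no square does, and Ccl3 in neutrophil-like cells lies below 2-fold lower.

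The UMIs of each chemokine accordingly came from different cells in each library. Macrophage-like cells held 38.9% and 53.8% of the Ccl2 UMIs, 53.5% and 73.8% of Ccl7, 46.8% and 65.6% of Ccl6 and 47.3% and 70.7% of Ccl9. Unnamed cluster B4 (325 and 49 cells) had 12 of 12 macrophage markers over 2-fold. With B4 added, the shares were 47.6% and 54.2% for Ccl2 and 62.4% and 74.4% for Ccl7. For Ccl6 they were then 53.4% and 65.8%, and for Ccl9 54.3% and 71.0%. Clusters with neutrophil markers, unnamed ones included, held 45.9% and 69.6% of Ccl3 and 38.0% and 62.5% of Ccl4. Unnamed cluster B1 alone held 4.27% and 38.7% of Ccl3. DC-like cells held 54.1% and 37.4% of the Cxcl9 UMIs, and macrophage-like cells 16.5% and 31.1%. These shares depend on the number of cells captured of each class and are not levels per cell.

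The receptors of these ligands were located next. Ccr1 was highest in neutrophil-like cells (947 and 1245 CPM), Ccr2 in DC-like cells (438 and 475 CPM), and Cxcr3 (23.6 and 68.1 CPM) and Cxcr6 (153 and 128 CPM) in T-like cells. Neutrophil-like cells thus had the highest levels both of Ccl3 and of its receptor Ccr1 among the classes compared. DC-like cells also had a higher sum of 6 monocyte markers than macrophage-like cells (1293 and 1809 CPM against 371 and 363), and the dendritic cell markers Flt3, Xcr1 and Clec9a were at 0 in the library without anti-PD-1. The part of monocytes in the DC-like Ccr2 level was not tested. Over all kept cells Ccr1, Ccr2 and Cxcr3 were over 2-fold higher in the Combo library, as were 6.75% of all 16112 genes. The class mix enters these ratios, and none was calculated at a fixed mix. Neutrophil-like cells were 4.46% and 15.2% of kept cells, DC-like cells 1.12% and 1.89% and T-like cells 0.580% and 1.06%. In macrophage-like cells Ccr2 was not past 2-fold, with 228 and 385 CPM, a log2 ratio of 0.76 (0.60 to 0.91). Of the 3 scavenging receptors, which remove chemokines without signaling, Ackr1 reached 25.5 and 17.7 CPM and Ackr2 7.03 and 3.54 CPM in CAF-like cells.

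Among 25 other chemokines, 12 had enough UMIs in macrophage-like cells. Cxcl11 was over 2-fold higher in the Combo library, with 16.0 and 65.1 CPM, and 5 cells held 71.6% of its Combo UMIs. Cxcl5, Cxcl3 and Ccl8 were over 2-fold lower. Of all 9299 genes tested in this class, 1.54% were higher and 0.914% lower. Ccl8 was among the leading genes of cluster B11, and the libraries filled the macrophage-like clusters unequally. The part of this in the class ratios was not tested. Ccl8 had 1889.6 and 702 CPM in macrophage-like cells, a log2 ratio of -1.43 (-1.49 to -1.36). Ccl12, another Ccr2 ligand, had 760.0 and 569 CPM there (-0.42). The Ccr2 ligands Ccl2, Ccl7 and Ccl12 thus had similar ratios in these cells, while that of Ccl8 was lower.

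Among the inducers and signaling genes of the chemokines, Nfkb1 and Irf1 were over 2-fold higher in neutrophil-like cells of the Combo library. So were 11.2% of all 4298 genes tested in this class. Irf1, an interferon-induced transcription factor, had 109 and 221 CPM, a log2 ratio of 1.03 (0.59 to 1.49). Nfkb1 and Irf1 were thus higher in the class in which Ccl3 and Ccl6 were lower. The libraries filled the clusters of this class unequally, and the part of this in these ratios was not tested. Ifng, the cytokine that induces Cxcl9 and Cxcl10, was counted in T-like cells with 3 UMIs in 2 cells and 101 UMIs in 6 cells, 35.3 and 265 CPM. Of the 101, 1 cell held 84, so the log2 ratio of 2.90 (1.32 to 5.21) rested on that cell. Of the 3 processing enzymes, Dpp4, Adam10 and Adam17, 2 could be compared in macrophage-like cells, and 0 were past 2-fold.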

How the data were processed

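The authors deposited a matrix of UMI counts per gene and cell for each library, without normalization. The files' header names Cell Ranger 6.1.2 and the study's methods another version and the mm10 genome. The submitters' processing notes name Seurat 4.1.0. All 55450 gene identifiers matched the GENCODE annotation of GRCm38. The 10 members and the gene lists were chosen with earlier results of these data known.

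Cells were kept if they had 200 genes or more and less than 20% of UMIs from mitochondrial genes. The automatic threshold of Scrublet called 0 doublets in each library, so the highest scores were removed at the expected rate of 0.8% per 1000 cells (12.8% and 4.77%). This rate was adopted after the data were seen. Clusters (scanpy 1.11.5, leidenalg 0.10.2, 2000 variable genes without the members, 30 components, 20 neighbors, resolution 1.3) were named from fixed markers against all other cells, a comparison also settled after the data were seen. A class needed at least 3 markers over 2-fold and a mean log2 fold of its markers of at least 1. Tumor-like and low-UMI keratin clusters were instead compared with the clusters already named for other classes. They needed Krt8 and Krt18 over 2-fold, and no mean was required. The other cells were then clustered again, which gave the clusters whose names start with B. A cluster with a median UMI count under 1 part in 3 of its library's and none of its markers among the 10 leading genes stayed unnamed, or was called low-UMI keratin if it met the keratin rule.

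UMIs were summed per class and library and given as CPM with exact Poisson intervals. Ratios have exact conditional binomial intervals, and shares exact Clopper-Pearson intervals. Shares are the expectation after thinning to 1000 UMIs per cell, with shallower cells left out. The number of UMIs behind a value sets its precision, and a class with few cells is given with its cell number. A gene at 0 was given the floor of 3 counts. With 1 library per group no test was run. The text names all members, and of each list the genes with the highest level or past 2-fold. The 3 genes most like each member were taken by Pearson r. Genes named otherwise were chosen after their values were seen. Simulated counts were used to check the fold calls, the ratio intervals and the thinning, but not clustering, class naming or doublet removal. Promoter sequences are from RefSeq (GRCm38.p6), for 5 of 10 members. Scripts ran on Python 3.11.15 with pandas 2.3.3, scipy 1.17.1, matplotlib 3.10.9 and numpy 2.4.6. Some genes of the lists are not reported here.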

Additional observations from a re-analysis of the deposited data

How the results depend on the processing

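The 8 of 10 chemokines with the same leading class in both libraries stayed within 1.5 times under every setting tried. The pair of leading classes was the same under 12 of 12 settings for Ccl2, Ccl7, Ccl3, Ccl4 and Ccl5, under 11 for Ccl6, 10 for Cxcl16, 8 for Ccl9 and Cxcl10 and 6 for Cxcl9. The counts past 2-fold moved as follows, and the cause was not tested where none is given. Shares of all genes were not calculated under these other settings, so the counts stand without a background. In macrophage-like cells the number higher was 1 with under 10% mitochondrial UMIs, at resolution 0.8, at resolution 2, with members among the variable genes, with classes from marker UMIs and at a fold of 1.5, 2 with the mean of per-cell CPM and 7 with doublets kept. The number lower there was 1 with no mitochondrial limit, with classes from marker UMIs and with the per-cell mean, and 2 at a fold of 1.5. In neutrophil-like cells the number higher was 1 with under 10% mitochondrial UMIs, at both resolutions and with 50 components (Cxcl10 each time) and with classes from marker UMIs (Cxcl9), and 2 with doublets kept (Ccl7 and Cxcl10). The number lower was 0 with no mitochondrial limit, with classes from marker UMIs, with unnamed clusters added and at a fold of 3, 2 at resolution 2, with members among the variable genes and with no minimum of UMIs, 3 with the per-cell mean and 4 at a fold of 1.5. With doublets kept it was 1, but Ccl5 in place of Ccl3. In tumor-like cells 1 was lower with doublets kept and 1 higher at a fold of 1.5. Over all kept cells 4 were higher with doublets kept and without the 5 highest cells (Cxcl9 lost) and with the per-cell mean (Ccl9 lost), 8 were past a fold of 1.5, 0 past 3 and 0 at the class mix of the other library.

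Some log2 ratios turned below 0. The CPM ratio of Ccl3 in T-like cells did so with under 10% mitochondrial UMIs (-0.46) and at resolution 2 (-0.0150), the CPM ratio of Ccl4 in T-like cells (-0.42) and the CPM ratio of Ccl6 in T-like cells (-0.52) without the 5 highest cells, and the CPM ratio of Cxcl10 in T-like cells with classes from marker UMIs (-3.57). At the class mix, the CPM ratio of Ccl3 in all kept cells (-0.54), the CPM ratio of Ccl4 in all kept cells (-0.26) and the CPM ratio of Ccl6 in all kept cells (-0.059) turned likewise, as did 2 that were not past 2-fold, the CPM ratio of Ccl7 in all kept cells (-0.11) and the CPM ratio of Cxcl10 in all kept cells (-0.25). The class mix, the addition of unnamed clusters and the A12 levels without the 5 highest cells were chosen after seeing the data. No paired analysis was possible because each group is 1 library. T-like and endothelial-like cells are few, and neutrophil-like cells without anti-PD-1 hold a median of 640 UMIs, which limits what can be read from them.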
